A study of Mus musculus with 25 samples.

Results

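The lysosomal genes described here are 47 genes, chosen by name from what they are known to do, out of 22439 genes in the count files, and all 47 were found there. They comprise 16 genes of the vacuolar proton pump (V-ATPase), of which 6 encode its membrane sector V0, 8 its catalytic sector V1 and 2 accessory proteins. The other 31 encode 5 lysosomal membrane proteins, 9 cysteine proteases, 2 aspartic and 2 serine proteases, 7 glycosidases, 4 proteins of lipid hydrolysis with granulin, and 2 transcription factors.

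Lysosomes are acidic compartments in which phagocytes break down what they engulf. The V-ATPase spends ATP in its V1 sector to drive protons through its V0 sector, and the resulting acidity activates the hydrolases inside, among them the cathepsins. The factors encoded by Tfeb and Tfe3 bind a motif built around CACGTG in the promoters of many lysosomal genes, and in the injured spinal cord myelin and dead cells form much of the load that microglia and macrophages take up.

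Myeloid cells were sorted by fluorescence from the injury site of mouse spinal cord and profiled on the 10x Genomics 3′ platform, in which each unique molecular identifier (UMI) stands for 1 captured transcript. The 25 libraries, each pooled from 1 to 3 mice, comprised 2 from mice given a laminectomy alone (Ctrl) and 5, 4, 7, 5 and 2 from day 1, 2, 3, 10 and 21 after injury (D1 to D21). All mice carried Cx3cr1CreERT2, an inducible Cre recombinase at the locus of a receptor that microglia and many monocytes express. In 12 libraries (mixed) this was the only labelled allele and all YFP+ cells were sorted, whereas mice of the strain Cx3cr1CreERT2:R26tdTomato gave 5 resident (RFP+/YFP+) and 7 infiltrating (RFP-/YFP+) libraries, so that the mixed sort and its strain cannot be told apart, while resident and infiltrating cells share 1 strain. The labels of 1 further D3 library conflict, and it was kept out of the comparisons. The labels give no ages. Both sexes were sampled, and sex was a term of each fit over time points.

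The 30958 cells yielded 486649 to 33204422 UMIs per library. The deposited cell type codes corresponded to 13289 microglia (42.9%; 9 of 9 microglial markers), 12841 macrophages including monocytes (41.5%; 8 of 9 macrophage and 4 of 8 monocyte markers), 2712 dendritic-like cells (8.76%; 5 of 8 markers) and 2116 neutrophil-like cells (6.84%; 7 of 7 markers). Across libraries, 127 cell barcodes occurred more than 1 time. A replicate below is 1 library's summed cells of 1 type, with at least 20 cells. The time courses of microglia used resident and mixed libraries and those of macrophages infiltrating and mixed libraries, so statements on libraries over time cover these. Left out of them for their sort were the microglia of D10_infiltrating 2 (36 cells) and D21_infiltrating 1 (41 cells) and the macrophages of D2_resident 1, D3_resident 1 and 2 and D10_resident 1 (40 to 185 cells). Their values are given beside the results for which the side of Ctrl or the order of times differed from the fitted libraries in a gene described at length, and all sorts entered the comparisons of cell types. Levels are CPM, the UMIs of a gene scaled to a common total for those cells, and fold changes come from edgeR's quasi-likelihood test with its TMM scaling, which centres the typical gene on no change. The test called a gene where the Benjamini-Hochberg adjusted p over all genes was under 0.05, and "rose" and "fell" are used of such genes. The choice of scaling matters in microglia. The TMM factors of the Ctrl libraries were 1.384 and 1.461, against 0.771 to 1.279 after injury, and TMM placed the median gene 0.38 to 0.86 log2 units higher against Ctrl than scaling by library size did. Counts of calls by library-size scaling among the genes of the set are therefore given beside the main ones for the comparisons with Ctrl, with the calls that it did not make. No gene of the set that was called under both scalings had opposite directions.

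A promoter window (250 bases before to 50 after the start, RefSeq, GRCm38.p6) was given for 38 of the 47 genes. CACGTG, which reads the same on both strands, was present in 14 of 38 (36.8%), compared with 8.09% of all 27025 genes with a window. The extended form TCACGTG, searched on both strands and overlapping the shorter one, was present in 12 of 38 (31.6%) and 4.29%. The sequences below are printed because their genes, from 5 functional classes, recur in the results, and capitals mark the motif on the gene's strand. The stretches of Lamp1 and Glb1 lie before the annotated gene, while those of Atp6v1a, Ctsd and Ctsl lie inside it. For Ctsd and Ctsl the 60 bases around the site overlap an annotated exon.
Lamp1 (lysosomal membrane protein, + strand, chr8:13159101-13159160): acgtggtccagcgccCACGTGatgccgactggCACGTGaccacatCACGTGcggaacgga
Glb1 (beta-galactosidase, + strand, chr9:114401003-114401062): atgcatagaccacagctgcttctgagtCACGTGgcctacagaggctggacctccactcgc
Atp6v1a (V-ATPase catalytic subunit, - strand, chr16:44139358-44139417): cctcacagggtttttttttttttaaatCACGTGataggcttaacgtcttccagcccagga
Ctsd (cathepsin D, - strand, chr7:142387911-142387934): cccgcgtctCACGTGacccgttga
Ctsl (cathepsin L, - strand, chr13:64370742-64370765): gttagaagcCACGTGctgatctaa
A match is a description of these letters only. Genes with and without it changed in both directions: at D3 against Ctrl in microglia, 9 of the 14 with CACGTG rose and 1 fell, and of the 23 tested genes with a window lacking it, 10 rose and 4 fell.

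The share of each library's microglial UMIs taken by the 47 genes was 4.50% and 4.98% in the Ctrl libraries. It was 3.57% ± 0.393 (SD, n = 3) at D1, 3.93% ± 1.18 (n = 3) at D2, 5.76% ± 0.713 (n = 5) at D3 and 6.19% ± 0.188 (n = 3) at D10, and 5.94% in the single D21 library of the time course. All 3 D1 libraries (3.30% to 4.02%) lay under both Ctrl libraries, and the 3 fitted D10 libraries (6.0% to 6.38%) lay above them, while the D3 range (4.67% to 6.60%) overlapped Ctrl. The microglia left out for their sort lay under both Ctrl libraries, at 3.91% in D10_infiltrating 2 and 4.19% in D21_infiltrating 1, and with them the means were 5.62% at D10 and 5.06% at D21. The Ctrl libraries held no cells coded as macrophages. In macrophages the share was 3.27% ± 0.270 (n = 4) at D1, 4.59% ± 1.50 (n = 3) at D2, 5.41% ± 2.09 (n = 2) at D3, 2.76% ± 1.10 (n = 4) at D10 and 3.74% ± 1.60 (n = 2) at D21. With cells thinned to 700 UMIs each, the macrophage means were 3.16% at D1, 3.56% at D10 and 4.45% at D21, so that D10 then lay above D1 and not below it. The macrophage ranges of neighbouring times overlapped among the fitted libraries, apart from D3 (3.94% and 6.89%) and D10 (1.74% to 3.91%). These too overlapped once resident libraries were included, with macrophages at 3.98% and 4.62% at D3 and 4.64% at D10. Dendritic-like cells held the lowest mean share at each time after injury, with 1.10% to 1.87% in 9 sums of cells. The neutrophil-like cells of D2_infiltrating 1 (1.42%) and the macrophages of D10_mixed 2 (1.74%) lay within that range.

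**Figure D1:**
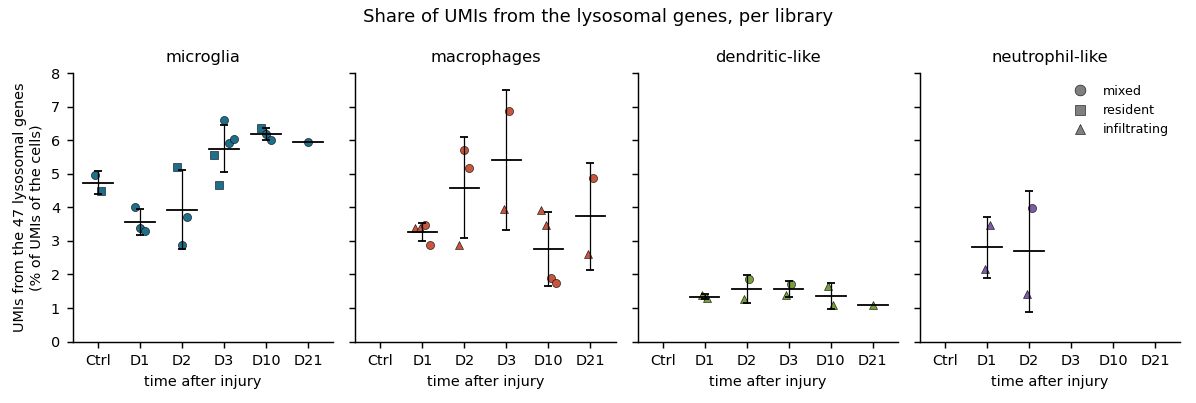
Percent of UMIs from the 47 lysosomal genes by time point in each cell type; points are libraries (for microglia and macrophages, those of the time courses) and bars are the mean ± SD. Microglia went from 4.50% and 4.98% in Ctrl to 3.30% to 4.02% at D1 and 6.0% to 6.38% at D10, while dendritic-like cells did not exceed 1.87%.

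Few genes carry most of this share. Since each UMI is 1 captured 3′ end, levels of different genes are compared as UMIs, with no division by transcript length. In Ctrl microglia Ctss (cathepsin S) gave 25.6% of the set's UMIs and Ctsd (cathepsin D) 14.3%. At D1 the leading gene by the mean over libraries was Ctsl (cathepsin L) with 17%, although Ctsd led in D1_mixed 1 and Ctsl in the other two, and at D3 it was Ctsd with 29.5% followed by Ctsb (cathepsin B) with 10.8%.

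Compared to Ctrl, microglial lysosomal genes did not move as a block. At D1, 17 of 46 tested genes rose and 6 fell, where 46.6% of all 10801 tested genes were called (23.9% higher, 22.7% lower), so the share of called genes was near the background. The median change was 0.22 on the log2 scale, against -0.01 over all genes. At D2, 9 rose and 5 fell (29.7% of all genes called), with a median of 0.17. At D3, 25 rose and 5 fell (37.6% of all genes called, 20.1% higher and 17.6% lower), with a median of 0.92 against -0.04. At D10, 19 rose and none fell by edgeR (10.3% of all genes called, 8.06% higher and 2.22% lower), and at D21, 16 rose and none fell (6.98% of all genes called, 6.12% higher and 0.861% lower), with medians of 0.93 and 1.16. None fell at D10 and D21 at the adjusted threshold, and 6 of 46 and 5 of 46 fitted changes there were negative.

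By library-size scaling the counts were 5 higher and 17 lower at D1, 4 and 9 at D2, 17 and 7 at D3, 11 and 2 at D10, and 8 and 1 at D21. Over all genes this scaling called 11.9% higher and 40.6% lower at D1, 11.7% and 24.2% at D2, 10.9% and 36.6% at D3, 4.57% and 20% at D10, and 2.93% and 17.1% at D21, so the 17 lower at D1 were near the background and the 7 at D3 under it. The genes called higher at D1 under both scalings were Atp6v0c, Atp6v0d1, Atp6v0e, Atp6v1g1 and Ctsl, and those called lower under both were Ctsf, Ctsh, Hexa, Man2b1, Psap and Tfe3. At D3, 17 genes were higher and 5 lower under both. Of the rises described below, library-size scaling did not call those of Ctsb (0.69), Ctsz, Cd68, Atp6v1f and Atp6v0d2 at D1, of Atp6v1g1 at D2, D10 and D21, of Ctsa, Scarb2, Glb1, Naglu and Gaa at D3, of Ctsl (0.62), Lamp1 and Grn at D10, and of Ctsa, Ctsz and Glb1 at D21. All comparisons with Ctrl share the same 2 Ctrl libraries, and D21 rests on 1 library whose spread is taken from the other groups. Leaving out Ctrl_resident 1 lowered the number called from 23 to 11 at D1, from 30 to 17 at D3 and from 19 to 7 at D10, and leaving out Ctrl_mixed 1 lowered it from 14 to 5 at D2 and from 16 to 9 at D21.

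**Figure D2:**
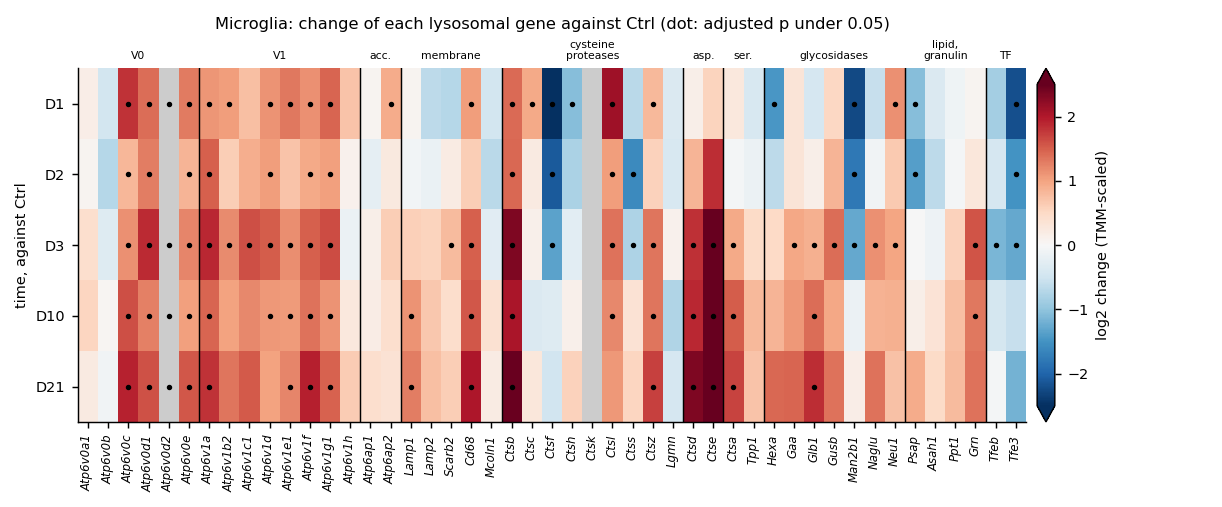
Log2 change (TMM-scaled) of each lysosomal gene in microglia at 5 times against Ctrl, ordered by role; dots mark adjusted p under 0.05, and grey marks Atp6v0d2, at 0 in Ctrl, and Ctsk, not tested. Of the pump genes 11 of 16 were called higher at D1, and of the other lysosomal genes 6 of 30 were called higher at D1 and 14 of 30 at D3.

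At D1, 11 of the 16 proton pump genes rose in microglia and none fell by edgeR (median log2 change 1.12 over the 16), while 6 of the 30 tested other genes rose and 6 fell (median -0.36). The pump count was 7 higher on D2, 11 on D3, then 9 at D10 and 8 at D21. No pump gene was called lower at the later times by edgeR, where the medians were 0.78, 1.21, 1.08 and 1.41. By library-size scaling, 4 pump genes rose and 1 fell at D1 with a median of 0.39, while 1 of the others rose and 16 fell with a median of -1.08, against a median of -0.73 over all genes. By mean CPM, 11 of 16 pump genes were lowest and 3 highest in Ctrl, whereas of the 31 other genes 5 were lowest and 11 highest in Ctrl, and 19 were lowest at D1.

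Atp6v0c encodes the proteolipid that forms the rotating proton-carrying ring of V0 and lies at chr17:24163866-24169702 (GRCm38, - strand). Its level was 792 and 767 CPM in the Ctrl libraries, 1857, 1652 and 1582 at D1, 1302, 977 and 1014 at D2, 981 to 1596 at D3 (median 1104), 1713, 1570 and 1531 at D10 and 1599 at D21. Every injured library lay above both Ctrl libraries, and levels were higher at D1, at D10 and in the single D21 library than at D2 and in most D3 libraries. The log2 change was 1.81 ± 0.27 (SE) at D1 (adjusted p = 7.40e-05, edgeR). Atp6v0c has annotated processed pseudogenes (Atp6v0c-ps1 and Atp6v0c-ps2), so reads may be shared with near copies and the value is uncertain to that extent.

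Atp6v1a encodes the ATP-hydrolysing A subunit of V1. It was at 35.2 and 36.1 CPM in Ctrl, 58.6, 46.2 and 44.6 at D1, 89.4, 70.7 and 74.0 at D2, 75.6 to 124 at D3 (median 91.8), 62.5, 67.8 and 71.5 at D10 and 65.1 at D21. Unlike Atp6v0c, it was highest at D3, with a log2 change of 1.89 ± 0.26 (adjusted p = 5.99e-05, edgeR), and no injured library of the time course overlapped Ctrl. Among the microglia left out for their sort it was at 83.2 CPM in D10_infiltrating 2 (7 counts) and 15.6 in D21_infiltrating 1 (2 counts), the latter under Ctrl. Atp6v0d1, which joins the V0 ring to the central stalk, had a like course, from 74.0 and 72.3 CPM in Ctrl to 143 to 229 at D3 (1.86 ± 0.25, adjusted p = 4.62e-05, edgeR). Atp6v1g1 and Atp6v1f, subunits of the stalks of V1, rose at each of the 5 times against Ctrl.

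Atp6v0d2, the isoform of Atp6v0d1 known from osteoclasts and some macrophages, had no UMI in either Ctrl library, which allows up to 0.403 CPM (3 counts of the group's 7451300 UMIs). It reached 4.44, 4.49 and 6.54 CPM at D10 (60 counts in all), at least 12.8-fold higher than Ctrl, and 14.4 CPM at D21 (66 counts), at least 35.7-fold higher. At D1 to D3 it had 7, 0 and 5 counts. edgeR called it higher at D1 and D3, so it is 1 of the 11 pump genes counted as rising at each of those times, but these calls rest on those counts and were lost under 12 of 27 and 8 of 28 alternatives.

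Of the 5 lysosomal membrane proteins, 1 rose at D1, none was called at D2 by edgeR, and 2 rose at each of D3, D10 and D21. Cd68 (macrosialin, a glycoprotein of late endosomes used as a marker of phagocytic activity) was at 755 and 578 CPM in Ctrl, 760 to 889 at D1, 674 to 963 at D2, 1052 to 1418 at D3 (median 1213), 1436, 1283 and 1184 at D10 and 1530 at D21. All D3, D10 and D21 libraries lay above both Ctrl libraries, and the D2 range overlapped them. The log2 change was 1.50 ± 0.24 at D3 (adjusted p = 2.23e-04, edgeR) and 2.02 ± 0.32 at D21 (adjusted p = 5.36e-04). Lamp1, a coat glycoprotein of the lysosomal membrane, was at 1551 and 1363 CPM in Ctrl and 865 to 1039 at D1, below Ctrl without being called, and it rose at D10 (2300, 2011 and 2154 CPM, log2 change 1.13 ± 0.26, adjusted p = 0.00933, edgeR). Among the microglia left out for their sort Lamp1 was at 1783 CPM in D10_infiltrating 2 and 1551 in D21_infiltrating 1, the latter no higher than Ctrl. Scarb2, which carries glucocerebrosidase to the lysosome, had its lowest values at D1, 62.7 to 91.2 CPM, and stood at 198 to 304 CPM at D3, where it rose against Ctrl (210 and 186).

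The cysteine proteases moved in both directions. At D1, 4 of 8 tested rose and 2 fell, at D3 3 rose and 2 fell, and at D21 2 rose. Ctsb, an endo- and exopeptidase (chr14:63122462-63145923, + strand), was at 1788 and 1716 CPM in Ctrl. It was at 4203, 2910 and 2251 at D1, 5341, 2717 and 3671 at D2, 4539 to 8096 at D3 (median 6383), 4923, 5115 and 4950 at D10 and 4931 at D21. No injured library overlapped Ctrl, and the D3 libraries were the highest as a group. The log2 change was 1.41 ± 0.33 at D1 (adjusted p = 0.00241, edgeR) and 2.33 ± 0.32 at D3 (adjusted p = 5.99e-05).

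Ctsl, an endopeptidase (chr13:64359337-64370890, - strand), was the gene of the set with the smallest adjusted p at D1. Its CPM was 2322 and 2469 in Ctrl, 4709, 5562 and 7499 at D1, 4060, 3707 and 3738 at D2, 3020 to 5259 at D3 (median 3599), 3688, 3510 and 3697 at D10 and 2949 at D21. All injured libraries of the time course lay above Ctrl, and the D1 libraries of Ctsl overlapped those of D3. The microglia of D10_infiltrating 2 (1450 CPM) and D21_infiltrating 1 (1169 CPM) lay under Ctrl in Ctsl, and with them the D10 rise was not called (1.02, adjusted p = 0.102, edgeR). Its log2 change was 2.11 ± 0.31 at D1 (adjusted p = 6.20e-05, edgeR), 1.36 ± 0.28 at D3 (adjusted p = 0.00128) and 1.21 ± 0.29 at D10 (adjusted p = 0.0104). Ctsz, a carboxypeptidase, rose at D1 (0.82), D3 (1.34), D10 (1.33) and D21 (1.71), whereas the 2 infiltrating libraries, at 2069 and 2166 CPM, did not lie above Ctrl (2126 and 2188). The D3 rise of Ctsl was lost with the sequencing pool as a term and with mixed libraries alone.

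Ctss, which remains active at neutral pH and trims the invariant chain of MHC class II (chr3:95526786-95556403, + strand), took the opposite course. It was at 13749 and 10630 CPM in Ctrl, 4897, 4658 and 5221 at D1, 4986, 2158 and 2776 at D2, 4652 to 5179 at D3 (median 5030), 10809, 10107 and 11574 at D10 and 9258 at D21. D1 to D3 libraries lay far under Ctrl with no overlap, and the fitted D10 libraries overlapped Ctrl again. The microglia of D10_infiltrating 2 (5719 CPM) and D21_infiltrating 1 (7122 CPM) still lay under Ctrl in Ctss, the former near the D1 and D3 levels. By edgeR Ctss fell by 1.59 ± 0.30 at D2 (adjusted p = 0.00112) and by 0.78 ± 0.27 at D3 (adjusted p = 0.0316), and it was not called at D1, D10 or D21. Between D3 and D10 it rose by 1.16 ± 0.23 (adjusted p = 0.00907, edgeR). With the sequencing pool as a term none of these 3 Ctss results was called: the D2 value was -0.71 (adjusted p = 0.081, edgeR), and those of D3 against Ctrl (0.51) and D10 against D3 (-0.11) had the other sign. That fit called few genes of any kind in these steps, 2.35% of all genes higher and 0.00926% lower at D3 and 0% for D10 against D3. Under all alternatives together the D3 fall of Ctss was lost in 8 of 30: the pool term, every sort, mixed libraries alone, equal depth, the replicate block, and without clusters 6, 7 and 10, Ctrl_mixed 1 or D3_resident 1.

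Ctsf, a lysosomal cathepsin of brain and muscle, fell at D1 to D3. It was at 354 and 288 CPM in Ctrl, 47.7, 38.8 and 29.9 at D1, 101, 42.1 and 7.40 at D2 (the last from 1 count), 59.6 to 126 at D3, 179, 172 and 195 at D10 and 116 at D21. All injured libraries were below Ctrl, with the lowest values on the first days. It fell by 2.53 ± 0.47 at D1 (adjusted p = 3.97e-04, edgeR) and by 1.33 ± 0.41 at D3 (adjusted p = 0.018), and at D10 and D21 it was not called. With the sequencing pool as a term neither the D2 value of Ctsf (-1.01) nor the D3 value (1.10) was called. With mixed libraries alone Ctsf had the other sign, 0.30 at D1 and 1.75 at D3, without a call, and with every sort the D3 fall was not called (-1.17). In all, the D3 call of Ctsf was lost under 6 of 30 alternatives. Ctsh, an aminopeptidase, fell by 1.06 ± 0.30 at D1 (adjusted p = 0.00851, edgeR), from 1504 and 1619 CPM to 448 to 476. Lgmn (legumain, an asparaginyl endopeptidase that processes cathepsins) went from 4758 and 4440 CPM in Ctrl to 1823, 1834 and 1937 at D10, below Ctrl without overlap, yet was not called at any time.

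Summed over 9 microglial markers, microglia held 24693 to 25965 CPM in Ctrl, 4035 to 8318 at D1, 8732 to 13277 at D3, 12015 to 14227 at D10 and 10270 at D21, and 6609 to 12281 at D2. Summed macrophage markers in the same cells were 419 to 462 CPM in Ctrl, 888 to 1194 at D1, 1756 to 2408 at D3, 2297 to 3549 at D10 and 4716 at D21, and 874 to 1103 at D2. These sums also differed between time points, and their part in the results was not tested.

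Both aspartic proteases rose from D3. Ctsd, the main aspartic endopeptidase of lysosomes (chr7:142375911-142388038, - strand), was at 7006 and 6556 CPM in Ctrl, 7324, 4461 and 3114 at D1, 14087, 6187 and 9808 at D2, 13237 to 20060 at D3 (median 16159), 18165, 18310 and 15026 at D10 and 17645 at D21. The D1 and D2 ranges overlapped Ctrl, and all libraries from D3 on lay above it. The log2 change of Ctsd was 1.83 ± 0.35 at D3 (adjusted p = 7.31e-04, edgeR), 1.89 ± 0.36 at D10 (adjusted p = 0.00219) and 2.34 ± 0.44 at D21 (adjusted p = 0.00243). With mixed libraries alone the D3 and D10 calls of Ctsd were lost, and that at D10 also without Ctrl_resident 1. Ctse (cathepsin E, an endosomal relative) was scarce, with 4 and 1 counts in Ctrl (0.715 and 0.539 CPM), and stood at 8.87, 10.4 and 10.0 CPM at D10 (20, 51 and 43 counts) and 13.3 at D21. The D3 and D10 calls of Ctse were lost with mixed libraries alone, and that at D3 also with the sequencing pool as a term. Of the serine proteases, Ctsa, the protective protein of beta-galactosidase and neuraminidase, rose at D3 (0.95), D10 (1.52 ± 0.34, adjusted p = 0.00662, edgeR) and D21 (1.68), from 720 and 545 CPM in Ctrl to 1286, 1231 and 1167 at D10, while D10_infiltrating 2 (713 CPM) lay within the Ctrl range of Ctsa. Tpp1, a tripeptidyl peptidase, was not called against Ctrl at any time by edgeR.

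Among the 7 glycosidases, which strip sugars from glycoproteins and glycolipids, 1 rose and 2 fell at D1, and 5 rose and 1 fell at D3. Man2b1, the lysosomal alpha-mannosidase, was at 1099 and 920 CPM in Ctrl, 167, 131 and 129 at D1, 357, 121 and 259 at D2, 156 to 394 at D3, 589, 592 and 719 at D10 and 581 at D21. Every injured library lay under Ctrl. It fell by 2.25 ± 0.38 at D1 (adjusted p = 1.75e-04, edgeR) and by 1.28 ± 0.32 at D3 (adjusted p = 0.00575), and it was not called at D10 or D21. With the sequencing pool as a term the D3 value of Man2b1 was 0.34, with no call, and the call was also lost without Ctrl_mixed 1.

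Hexa, the alpha subunit of beta-hexosaminidase that degrades GM2 ganglioside, fell and came back. It was at 831 and 768 CPM in Ctrl, 277, 187 and 152 at D1, 596, 281 and 407 at D2, 481 to 1115 at D3 (median 932), 943, 1113 and 1012 at D10 and 1051 at D21. The D1 libraries lay under Ctrl, and the fitted D10 and D21 libraries lay above it without a call, whereas the 2 infiltrating libraries of those times lay under it (749 and 740 CPM). The fall at D1 was 1.46 ± 0.35 (adjusted p = 0.00285, edgeR). Gusb (beta-glucuronidase) rose at D3 by 1.39 ± 0.32 (adjusted p = 0.00299, edgeR), from 249 and 400 CPM in Ctrl to 400 to 746, a call lost with the sequencing pool as a term, with mixed libraries alone and without Ctrl_mixed 1. Glb1 (beta-galactosidase, GM1 ganglioside) was at 61.5 and 63.7 CPM in Ctrl, 25.5 to 38.2 at D1 and 110, 124 and 114 at D10, and it rose at D3 (0.88), D10 (1.40) and D21 (1.84). In D10_infiltrating 2 Glb1 was at 59.4 CPM (5 counts), under Ctrl, and in D21_infiltrating 1 at 117 (15 counts), above it. Naglu and Gaa, which degrade heparan sulfate and glycogen, rose at D3 (1.15 and 0.97).

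Of the 4 genes of lipid hydrolysis and granulin, Psap fell at D1 and D2, and Grn rose at D3 and D10. Psap encodes prosaposin, the precursor of the saposins that present sphingolipids to their hydrolases. It was at 2411 and 2319 CPM in Ctrl, 954, 796 and 837 at D1, 1464, 373 and 629 at D2, 1158 to 2665 at D3 (median 1750), 1786, 1796 and 2156 at D10 and 2051 at D21. D1 and D2 libraries lay under Ctrl, and D3 overlapped it. Psap fell by 1.07 ± 0.43 at D1 (adjusted p = 0.0483, edgeR) and by 1.38 ± 0.41 at D2 (adjusted p = 0.0186). The D1 fall of Psap was lost under 14 of 29 alternatives, 10 of them the omission of 1 library. Its D2 fall was lost with the sequencing pool as a term (-0.31), without cluster 2, without clusters 6, 7 and 10, and without Ctrl_mixed 1 or D2_mixed 1. Grn (progranulin, a secreted and lysosomal glycoprotein) was at 1231 and 1167 CPM in Ctrl, 719 to 885 at D1, 1602 to 3488 at D3 (median 2293) and 1770 to 2353 at D10. It rose by 1.57 ± 0.34 at D3 (adjusted p = 0.00224, edgeR). The microglia of D10_infiltrating 2 (1153 CPM) and D21_infiltrating 1 (974 CPM) lay under Ctrl in Grn.

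Transcripts of Tfe3 and Tfeb did not rise in microglia with their known target class. Tfe3 was at 133 and 150 CPM in Ctrl, 19, 15.7 and 23.2 at D1 and 16.9 to 67.3 at D3, with all injured libraries under Ctrl. It fell by 2.20 ± 0.44 at D1 (adjusted p = 7.62e-04, edgeR) and by 1.27 ± 0.39 at D3 (adjusted p = 0.0171). Tfeb was at 35.6 and 36.7 CPM in Ctrl and 3.97 to 23.6 at D3, where it fell by 1.15 ± 0.44 (adjusted p = 0.0476, edgeR), a call lost under 18 of 30 alternatives, 12 of them the omission of 1 library. The D3 fall of Tfe3 was lost with the sequencing pool as a term, with mixed libraries alone and without either Ctrl library. Neither Tfe3 nor Tfeb was called at D10 or D21. Early, Tfeb was higher in macrophages than in microglia (0.85), a call lost at equal depth. Their relative Tfec, from the lists of other genes, rose in microglia at D1 and D2 by edgeR. Its mean was 0.27 CPM in Ctrl (1 count), 5.78 at D1 (71 counts) and 10.9 at D2 (42 counts). mRNA says nothing of where these proteins were in the cell.

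**Figure D3:**
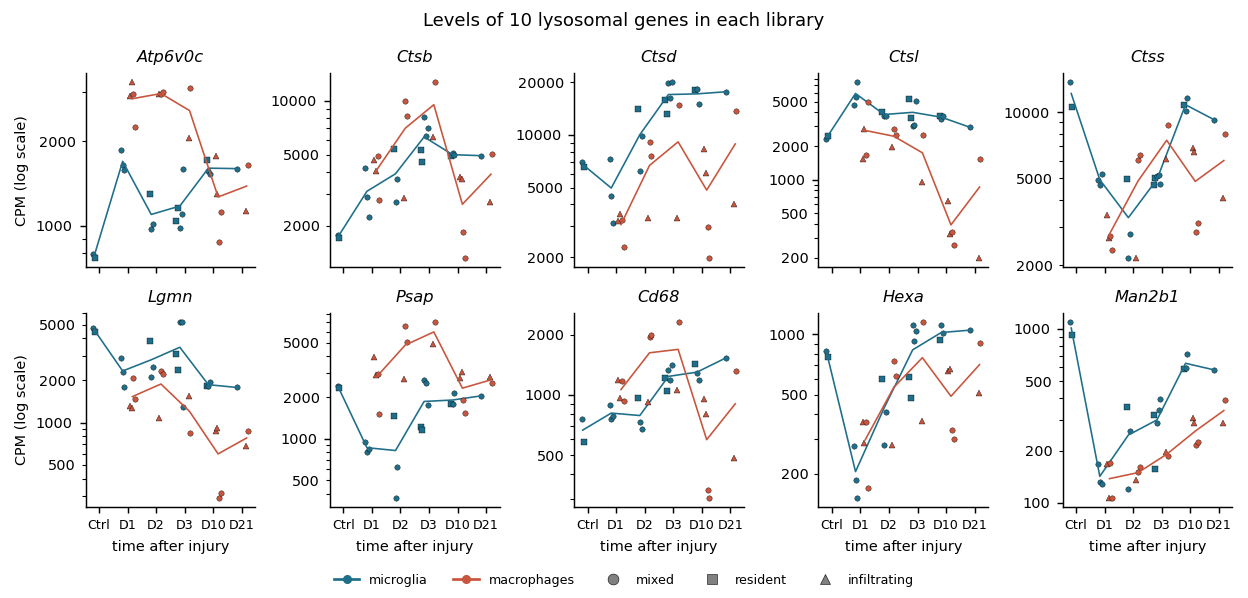
CPM (log axis) of 10 lysosomal genes by time point in microglia and macrophages; points are the libraries of the time courses and lines join group means. In microglia Ctss dipped from 13749 and 10630 CPM in Ctrl to 4652 to 5179 at D3, while Ctsb went from 1788 and 1716 to 4539 to 8096 and Man2b1 stayed under its Ctrl values.

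The step from D1 to D3 within microglia contrasts other libraries than Ctrl, although its fit shares the sex term and the spread with them. In it 17 of 46 genes rose and 3 fell, where 18.8% of all genes were called (8.62% higher, 10.2% lower), with a median of 0.53 against 0.02. By library-size scaling 23 rose and none fell (10.9% of all genes higher, 7.05% lower), and with every sort 10 rose and 2 fell (7.97% and 9.34%). The calls were nearly all outside the pump: 16 of 30 other genes rose and 2 fell (median 0.83), and 1 of 16 pump genes rose and 1 fell (median 0.16). Hexa rose by 1.95 ± 0.29 (adjusted p = 2.98e-04, edgeR), Ctsd by 1.68 ± 0.29 (adjusted p = 8.65e-04) and Naglu by 1.73 ± 0.35 (adjusted p = 0.00303). Grn (1.51), Scarb2 (1.50), Glb1 (1.31), Psap (1.06), Man2b1 (0.98) and Ctsb (0.92) also rose. The 3 D1 libraries in the microglial fit were all from males, and the Psap rise was lost without the sex term, without any 1 of those 3 and without D3_mixed 1. The 3 that fell were Ctsc (-0.83), a dipeptidyl peptidase that activates serine proteases of granules, Ctsl (-0.76) and Atp6v0c (-0.66), and none of these 3 was called by library-size scaling. Leaving out D1_mixed 2 lowered the number called from 20 to 8, and at equal depth (700 UMIs per cell) 10 rose and none fell (5.26% of all genes higher, 6.45% lower). From D3 to D10, 3 genes rose and none fell by edgeR (6.88% of all genes called, 2.96% higher and 3.92% lower): Atp6v0d2 (2.45 ± 0.65, adjusted p = 0.0383), Ctss and Man2b1 (1.12 ± 0.28, adjusted p = 0.0267). With the sequencing pool as a term the Man2b1 value was -0.49, and its call was lost under 10 of 30 alternatives and that of Atp6v0d2 under 12 of 28. Leaving out D10_mixed 2 left none called.

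In macrophages the comparison was with D1, since they enter the cord after injury. At D2 and D3 none of the 47 genes was called by edgeR, as no gene in the file was (0%). At an unadjusted p under 0.05 there were 1 and 7, and DESeq2 called none of them at either time. The medians were 0.07 at D2 and 0.53 at D3. With mixed libraries alone, where D3 is the single library D3_mixed 3, edgeR called 19 of the genes higher at D3 and none lower, where that fit called 11.5% of its 7473 genes (6.69% higher). At D10, 3 genes rose and 7 fell against D1 (14.4% of all 8577 genes called, 7.31% higher and 7.04% lower), with a median of -0.31 against 0.01. Leaving out D1_infiltrating 2 lowered the number called from 10 to 2, and with cells thinned to equal depth 7 were higher and 1 lower (10.5% and 7.14% of the 2114 genes of that fit). At D21, 3 rose and 1 fell (3.56% of all genes called, 1.95% higher and 1.61% lower). Leaving out D21_mixed 1 left none called.

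The genes that fell in macrophages at D10 were mostly of the pump, 5 of 16 with a median of -0.74, and among the other 31 genes 3 rose and 2 fell (median 0.03). At equal depth no pump gene was called. Atp6v0c was at 2898, 3252, 2941 and 2255 CPM at D1, 2938 to 2994 at D2, 2062 and 3085 at D3, 1776, 1295, 874 and 1123 at D10 and 1128 and 1643 at D21. The fitted D10 and D21 libraries all lay under those of D1 to D3, whereas D10_resident 1 (2077 CPM) lay above D3_resident 1 and 2 (1849 and 1915), and the fall at D10 was 1.15 ± 0.34 (adjusted p = 0.0366, edgeR). Atp6v1c1 and Atp6v1h, V1 subunits that bear on the joining of V1 to V0, fell by 1.38 ± 0.40 (adjusted p = 0.0334) and 1.00 ± 0.25 (adjusted p = 0.0199). Atp6v1h also fell at D21 by 1.80 ± 0.37 (adjusted p = 0.0219, edgeR). The D10 fall of Atp6v1c1 and the D21 fall of Atp6v1h were lost under 7 of 28 and 5 of 29 alternatives, equal depth among them.

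In macrophages at D10 Ctsl fell by 2.91 ± 0.66 (adjusted p = 0.012, edgeR). It was at 1520, 2843, 1661 and 5016 CPM at D1, 1962 to 2855 at D2, 954 and 2525 at D3, 649, 326, 340 and 257 at D10, and 197 and 1517 at D21. The fitted D10 libraries lay under all earlier ones, D10_resident 1 (919 CPM) did not lie under D3_resident 1 (904), and the 2 D21 libraries were far apart. Ctsk (cathepsin K, a collagen-degrading protease known from osteoclasts and the neighbour of Ctss on chromosome 3) was at 22.8 to 70.4 CPM at D2 and 30.7 and 31.9 at D3. At D10 its libraries held 3, 1, 0 and 0 counts, and its fall from D3 to D10 was the single call of that step (-5.39 ± 0.98, adjusted p = 0.0196, edgeR; 0.676% of all genes called, 0.0933% higher and 0.583% lower). That call rests on these few counts and was lost when any of the 4 D10 libraries was left out. At D1 it had 245, 384, 0 and 1 counts, with the high pair in the infiltrating libraries and the low pair in the mixed ones.

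The genes that rose in macrophages were Ctsf, Ctse and Man2b1. Man2b1 was at 107 to 170 CPM at D1, 216 to 307 at D10 and 287 and 391 at D21, with no overlap, and rose by 0.98 ± 0.27 at D10 (adjusted p = 0.0287, edgeR) and 1.45 ± 0.33 at D21 (adjusted p = 0.0254). These Man2b1 calls were lost under 9 of 28 and 6 of 29 alternatives. Ctsf went from 0 to 4.24 CPM at D1 (13, 6, 1 and 0 counts) to 6.51 to 13.2 at D10 (42, 8, 4 and 7 counts) and 19.1 and 50.8 at D21 (13 and 17 counts), and its fitted change of 3.88 ± 0.86 at D10 (adjusted p = 0.0112, edgeR) rests on these few counts. Ctse was at 3.33 to 18.2 CPM at D10 from 3 to 57 counts. The summed microglial markers in macrophages were 309 to 1180 CPM at D1 and 960 to 3769 at D10, and whether they bear on Ctsf, a gene higher in microglia, was not tested.

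Both cell types were next compared within libraries, with the library as a block, in 51 sums from 24 libraries. Early (D1 to D3), 17 of 47 genes were higher in macrophages than in microglia and 8 lower (40.5% of all 10398 genes called, 19.3% higher and 21.2% lower), with a median of 0.14. Late (D10 and D21), 2 were higher and 18 lower (16.6% of all genes called, 8.62% higher and 7.97% lower), with a median of -0.47 against 0.01. The share of UMIs in the 47 genes was higher in macrophages in 3 of 8 libraries early and in 0 of 6 late, where the difference was -4.29 to -0.436 percentage points. At equal depth 7 were higher and 8 lower early, and 0 higher and 4 lower late, where that fit called 12.9% of all genes higher and 13.8% lower early and 2.37% and 1.62% late.

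Of the 25 genes called early, 12 were pump genes, all higher in macrophages (12 of 16, median 0.67), and 13 were other genes, of which 5 were higher and 8 lower (of 31, median -0.22). At equal depth 6 pump genes were higher. Atp6v0c had a median of 2852 CPM in macrophages and 1228 in microglia of the same 8 libraries and was higher in all 8. Atp6v1a (215 and 74.8 CPM, 8 of 8) was higher by 1.46 ± 0.17 (adjusted p = 1.35e-08, edgeR). Psap (4848 and 1056 CPM, 8 of 8) was higher by 2.04 ± 0.33 (adjusted p = 7.39e-06), and Ctsk (33.0 and 0 CPM) was higher in 7 of 8 libraries. Ctsl (2093 and 4384 CPM) was lower in macrophages in 8 of 8 libraries (-1.25 ± 0.24, adjusted p = 9.76e-05, edgeR). So were Gusb (236 and 407 CPM, -0.94 ± 0.18, adjusted p = 9.11e-05) and Ctsf (2.30 and 53.6 CPM, -4.22 ± 0.41, adjusted p = 1.53e-09). Free RNA was not subtracted, and microglial UMIs of Ctsk at 0 to 2.52 CPM are no more than a trace.

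Late, 17 of the 31 genes outside the pump were lower in macrophages and none higher by edgeR (median -0.83), and of the pump 2 were higher and 1 lower (median -0.16). The 2 higher pump genes were Atp6v0d2 (2.12) and Atp6v1a (0.62). Their calls were lost under 5 and 6 of 27 alternatives, equal depth among them. The other 14 genes outside the pump were not called, among them Psap, higher in macrophages in 5 of 6 libraries, and Ctsb, higher in 3 of 6. Ctsd had medians of 5042 CPM in macrophages and 16336 in microglia of the same 6 libraries, and Ctsl 333 and 3230, both lower in 6 of 6. The differences were -1.62 ± 0.37 for Ctsd (adjusted p = 0.00167, edgeR) and -2.52 ± 0.30 for Ctsl (adjusted p = 1.55e-07). Cd68 was at 641 and 1234 CPM and lower in 6 of 6 (-0.97 ± 0.29, adjusted p = 0.018, edgeR), although early it had been higher in macrophages in 8 of 8 libraries (1468 and 926 CPM) without a call. Lgmn (638 and 1802 CPM), Grn (585 and 1686 CPM) and Hexa (591 and 978 CPM) were also lower. At equal depth Ctsd (-0.80), Cd68 (-0.42), Lgmn (-0.93) and Gusb (-0.56) were no longer called, while Ctsl (-1.59) and Ctsf (-1.74) were. Leaving out D10_mixed 1 lowered the late count from 20 to 11.

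The change in this difference from early to late was itself tested. For 13 of 47 genes the difference of macrophages from microglia was lower late than early, and for none higher by edgeR (12.5% of all genes called, 7.93% higher and 4.6% lower), with a median of -0.80 against -0.01. The 13 comprised 7 pump genes, Psap (-1.64 ± 0.48, adjusted p = 0.021, edgeR), Cd68 (-1.57 ± 0.38, adjusted p = 0.00527), Ctsl, Ctsb (-1.24 ± 0.40, adjusted p = 0.0363), Grn and Ctsa. Ctsb was at 7094 CPM in macrophages and 4371 in microglia early, and at 3178 and 4927 late. At equal depth, where 2.92% of all genes were called higher and 0.973% lower, none of the 13 was called, without dividing clusters 1 gene was called in the opposite direction, and leaving out D10_mixed 1 left 4.

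**Figure D4:**
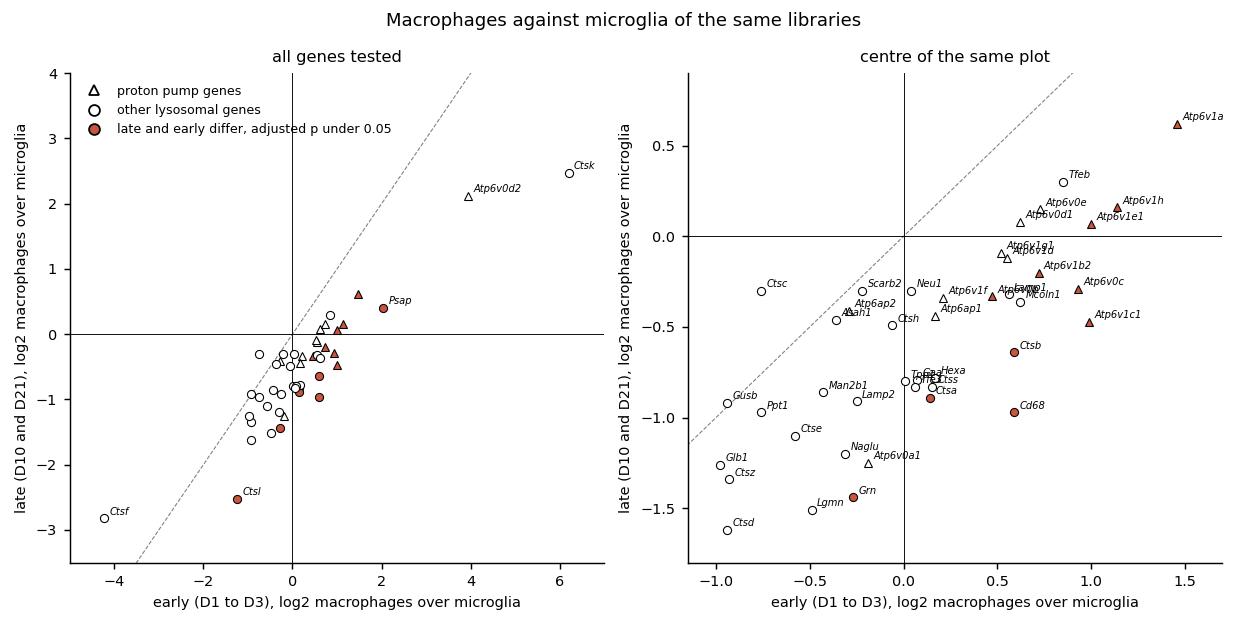
Log2 difference of macrophages from microglia within libraries, early (x) against late (y), for proton pump genes (triangles) and other genes; filled symbols are the genes whose difference changed between phases, and the dashed line marks equal differences. Most genes lie under the line, and the 13 filled ones all do.

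Dendritic-like cells, which process antigen for T cells, held less of most lysosomal transcripts than macrophages of the same early libraries. Early, 37 of 47 genes were lower and none higher by edgeR (30.4% of all genes called, 14.1% higher and 16.3% lower), with a median of -0.97 against -0.02, and the module's share was lower in 6 of 6 libraries. Ctsb had medians of 479 CPM in dendritic-like cells and 5473 in macrophages, Ctsl 185 and 2244, Ctsd 488 and 3435 and Lgmn 193 and 1294, each lower in 6 of 6. The differences were -3.57 ± 0.32 for Ctsb (adjusted p = 2.93e-10, edgeR), -3.67 ± 0.30 for Ctsl (adjusted p = 4.16e-11) and -3.12 ± 0.38 for Ctsd (adjusted p = 7.97e-08). Of the pump 15 of 16 genes were lower. The 10 genes not called included Ctss, Ctsh, Ctsc and Ctsf among the proteases, Ctse, Glb1, Man2b1, Asah1 (acid ceramidase), Tfeb and the pump's accessory gene Atp6ap2. Of these Ctsh (984 and 704 CPM), Man2b1 (230 and 165 CPM) and Asah1 (316 and 265 CPM) were higher in dendritic-like cells in 6 of 6 libraries, as was Ctsh in 3 of 3 late. Late, 14 were lower and none higher by edgeR (5.56% of all genes called, 2.98% higher and 2.58% lower), among them Ctsd (-4.28 ± 0.58, adjusted p = 8.31e-06) and Cd68 (-1.40 ± 0.40, adjusted p = 0.0356), whose call was lost when either of D10_infiltrating 1 and 2 or D21_infiltrating 1 was left out. Leaving out D10_infiltrating 2 lowered the late count to 5.

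Neutrophil-like cells, which carry their own granule proteases, were compared with macrophages in 4 early libraries. Their median UMI number per cell was 0.244 of that of all cells in their libraries. In them 9 of 47 genes were higher and 18 lower (51.3% of all genes called, 21% higher and 30.3% lower), with a median of -0.29 that equalled the median over all genes. Of the 9 cysteine proteases 8 were lower, with a median of -3.18: Ctss (190 and 3026 CPM, -3.99 ± 0.44, adjusted p = 6.23e-09, edgeR), Ctsl (153 and 2246 CPM, -3.88 ± 0.38, adjusted p = 6.30e-10) and Ctsc (46.1 and 594 CPM, -3.42 ± 0.35, adjusted p = 1.57e-09), each lower in 4 of 4 libraries. The pump was not lower with them, with 4 genes higher and 1 lower, and Atp6v0c was at 5996 CPM against 2970. Scarb2 (398 and 144 CPM), Mcoln1 (46.1 and 12.8 CPM), the calcium channel of lysosomes, and Ctse (24.3 and 0.777 CPM) were higher in 4 of 4 libraries.

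The deposited clusters are the authors' own, with codes that carry no names, and the values below describe them without a test. Clusters 1 to 7 are mainly microglia. Their median module shares over libraries ran from 2.79% in cluster 2 to 6.24% and 6.54% in clusters 3 and 4, with 4.74% in cluster 1, which came from the Ctrl libraries. Cluster 2 also had few UMIs per cell (2052 on average, against 3982 in cluster 1), and its low share was not examined apart from depth. Ctsd had a median of 18850 CPM in cluster 3, 17365 in cluster 4 and 6781 in cluster 1, whereas Ctss was at 12189 in cluster 1 and 11189 in cluster 4.

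Clusters 8 to 14 are mainly macrophages and ranged from 1.53% in cluster 13 and 2.01% in cluster 12 to 4.72% in cluster 9. Ctsk was highest in cluster 11 (50.9 CPM), Ctsb in cluster 14 (9625) and cluster 11 (8354), and Psap in cluster 14 (7792). The lowest macrophage clusters thus lay near the dendritic-like cluster 15 (1.39%).

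**Figure D5:**
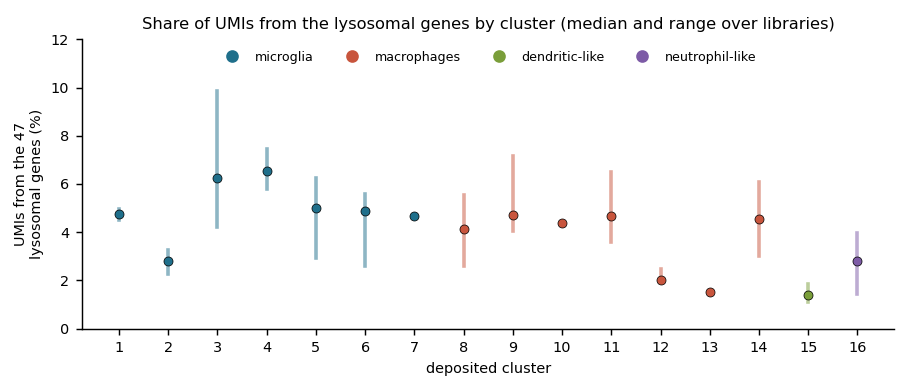
Percent of UMIs from the 47 lysosomal genes in each deposited cluster, as the median (point) and range (bar) over libraries. Microglial clusters 3 and 4 lie highest at 6.24% and 6.54%, and macrophage clusters 12 and 13 and the dendritic-like cluster 15 (1.39%) lie lowest.

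Other genes of the pathway were read from 7 lists of 95 genes. In microglia 25 of 87 tested rose and 19 fell at D1 (50.6% called, near the 46.6% of all genes), and 33 rose and 8 fell at D3 (47.1%, against 37.6%). At D10, 19 rose and 1 fell (23%, against 10.3%), and at D21, 15 rose and none fell by edgeR (17.2%, against 6.98%). All of these are by TMM scaling, and counts by library-size scaling are not given for these lists. Of the 8 genes of lysosomal sorting 7 rose at D3, and of the 26 tested other enzymes 10 rose and 2 fell. Cystatins, the protein inhibitors of cysteine cathepsins, moved apart from each other. Cstb rose at D1 from a mean of 98.4 to 734 CPM (3.64 ± 0.38, adjusted p = 5.82e-06, edgeR). Cst7, an inhibitor that acts within the endolysosome, rose from 28.4 CPM in Ctrl to 1127 at D10 (5.96 ± 0.52, adjusted p = 1.68e-06). Cst3, the abundant secreted cystatin C, fell from 57460 CPM to 7229 at D2 (-2.71 ± 0.38, adjusted p = 1.09e-04).

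Gla, the alpha-galactosidase that degrades globotriaosylceramide, rose in microglia from a mean of 6.19 CPM in Ctrl (37 counts) to 80.1 at D3 (4.40 ± 0.40, adjusted p = 2.49e-06, edgeR). Slc38a9, an amino acid transporter and sensor of the lysosomal membrane, fell from 90.8 CPM to 6.85 at D1 (-3.15 ± 0.60, adjusted p = 5.20e-04). In macrophages Cstb fell from a mean of 3428 CPM at D1 to 457 at D10 (-2.92 ± 0.35, adjusted p = 3.74e-04, edgeR). Arsb, the arylsulfatase of dermatan sulfate, rose there from 1.02 to 17.2 CPM (3.33 ± 0.54, adjusted p = 0.00247), and in the early comparison it was lower in macrophages than in microglia (-4.44 ± 0.29, adjusted p = 1.77e-13). The D10 value of Arsb rests on 8 to 77 counts a library, in fitted microglia it was at 120 to 166 CPM at D10, and the part of the microglial markers in macrophages (309 to 1180 CPM at D1, 960 to 3769 at D10) in its rise was not tested.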

How the data were processed

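Per the labels' protocols, lesion tissue was homogenised, cleared of myelin and sorted before 10x Genomics 3′ capture. For each library the authors deposited a matrix of UMI counts, not normalized, and a table of cells whose mitochondrial percent values they computed. The submitters' processing notes name Cell Ranger 3.1.0, GRCm38 and mm10. The lowest total of a deposited cell was 713 UMIs, and no further cell filter, doublet caller or free-RNA correction was applied.

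Counts were summed per library and cell type (20 or more cells) and fitted over all genes with edgeR 4.0.16 in R 4.3.3 (filterByExpr, TMM, quasi-likelihood test). Time courses used 17 microglial sums (135097 to 7794902 UMIs) and 15 macrophage sums (235999 to 22068469 UMIs), with time point and sex as terms. Comparisons of cell types used the library as a block. Nothing in the labels says that libraries of a group came from separate experiments, so p-values measure the spread between these libraries.

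Cell type codes were named by markers at 20 CPM or more and at least 2 times as high as in all other cells. DESeq2 1.42.0, library-size and median-of-ratios scaling, no filter, 50 or more cells, equal depth (700 UMIs per cell), the sequencing pool as a term, the replicate number as a block, no sex term, the conflicting library added (macrophages), mixed libraries alone, removal of cluster 2 or of dividing clusters, and leaving out each library were alternatives; library-size scaling and time courses with every sort were chosen after seeing the data. Time courses otherwise used resident and mixed libraries for microglia and infiltrating and mixed ones for macrophages. Full values went to the 3 members with the largest called changes in each direction of each comparison and to Ctsb, Ctsd, Ctsl, Ctss, Cd68, Lgmn, Psap, Gusb, Atp6v0d2 and Tfeb; further members with values were chosen after those were seen. The members and lists were chosen with earlier results of these data known. In counts simulated for microglia at D3 against Ctrl, the fit called 35, 4, 5 and 42 of 50 genes each at log2 changes of -2, -1, 1 and 2. It called 1 of 10275 unchanged genes. The simulation gave every gene the same assumed spread, which was not estimated from these data, so its counts hold for that setting alone. In it, changes of 1 log2 unit were mostly missed.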

Additional observations from a re-analysis of the deposited data

Results flagged for a closer look

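In groups of 4 to 10 libraries, 1 library stood apart from the rest of its group in 5 of 81 groups examined, and chance flags about 1 group in 20. In microglia at D3 these were Atp6v0c in D3_mixed 3 (1596 CPM), Scarb2 in D3_resident 1 (304 CPM) and Ctsk in D3_mixed 3 (2.52 CPM). In macrophages they were the UMI share of the 47 genes in D1_mixed 3 (2.87%) and Mcoln1 in D10_infiltrating 1 (22.8 CPM).

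For 13 genes the difference between macrophages and microglia was not the same early and late by the test of that change. The change was -0.80 for Atp6v0b, -1.22 for Atp6v0c, -0.84 for Atp6v1a, -0.91 for Atp6v1b2, -1.46 for Atp6v1c1, -0.93 for Atp6v1e1 and -0.97 for Atp6v1h on the log2 scale. It was -1.57 for Cd68, -1.24 for Ctsb, -1.26 for Ctsl, -1.04 for Ctsa, -1.64 for Psap and -1.17 for Grn. All 13 moved the same way, toward lower values in late macrophages relative to microglia. By that test 12.5% of all genes were called (7.93% higher and 4.6% lower). At equal depth none of the 13 was called, and leaving out D10_mixed 1 left 4 genes called.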

How the results depend on the processing

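Of 3062 alternative values of the 109 named gene results, 2779 kept their call, 276 lost it and 7 changed sign. Called under every alternative run were 45 results. Many counts below stand without the share of all genes called by the same fit. They show how far the calls depend on the setting and were not compared with that share. With mixed libraries alone, sex is told only from the D2_mixed pair (1 sum of 23 cells), and Ctrl, D21 and the macrophages of D3 have 1 library each. Counts for contrasts with those groups are not listed here. In microglia against Ctrl, Ctsf then had 0.30 at D1 and 1.75 at D3. That setting called 1 gene for D10 against D3 in microglia and 1 for macrophages at D2 against D1. With a pool term the counts were 17 at D3 (2.36% of all genes called), 30 at D10 (22.3%), 0 for D10 against D3 in microglia (0%) and 0 for macrophages at D21 (0.315%), and the values were 1.10 for Ctsf, 0.34 for Man2b1 and 0.51 for Ctss at D3, and -0.11 for Ctss and -0.49 for Man2b1 from D3 to D10. Pool could not be separated from time for the D1 and D21 microglia or D10 macrophage contrasts.

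At equal depth the counts were 10 for microglia D3 against D1, 0 for D10 against D3 in either type, 15 early and 4 late between the types, and 0 for the change between phases. By DESeq2 they were 7 for D10 against D3 in either type, 7 for macrophages at D21 and 24 for the change between phases. By library size they were 9 for microglia and 7 for macrophages at D21, 2 for macrophages D10 against D3, and 22 for the phase change, which stood at 20 by median-of-ratios scaling and 5 with at least 50 cells. Without clusters 6, 7 and 10 they were 1 for microglia D10 against D3, 7 for macrophages at D21, 13 late, 1 for the phase change and 24 for dendritic-like cells late. Macrophages D10 against D3 had 4 with no filter, 5 with the conflicting library added and 3 with every sort, which gave 12 for microglia D3 against D1 and shares of 5.62% and 5.06% in microglia at D10 and D21.

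Without Ctsb, Ctsd, Ctss and Psap the UMI share was 2.43%, 2.18%, 2.12%, 2.75%, 2.70% and 2.55% in microglia from Ctrl to D21 and 1.99%, 2.25%, 2.21%, 1.29% and 1.59% in macrophages from D1 to D21. At equal depth it was 5.90% at D10 and 5.79% at D21 in microglia, and 6.19% at D21 without cluster 2. In macrophages at equal depth it was 3.16%, 3.56% and 4.45% at D1, D10 and D21, each within the spread between libraries of its group.

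Leaving out 1 library at a time gave 11 to 24 genes called for microglia at D1, 5 to 17 at D2, 17 to 33 at D3, 7 to 24 at D10, 9 to 19 at D21, 8 to 22 for D3 against D1 and 0 to 7 for D10 against D3. For macrophages it gave 0 to 1 at D3, 2 to 14 at D10, 0 to 6 at D21 and 0 to 3 for D10 against D3. Between the types it gave 24 to 27 early, 11 to 23 late and 4 to 18 for the phase change, and 35 to 38 early and 5 to 19 late for dendritic-like cells and 24 to 30 for neutrophil-like cells.

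The replicate numbers were not taken to pair the libraries. Same-numbered microglial libraries of different groups correlated at -0.184 to 0.107, and other-numbered ones at -0.191 to 0.191. In groups with replicates 1 and 2 alone, such as D10_mixed, the values mirror each other, so this check cannot decide whether the numbers pair libraries. With the replicate number as a block the counts were 22, 16, 27, 22 and 18 for microglia at D1, D2, D3, D10 and D21 against Ctrl, and 0, 0, 9 and 5 for macrophages at D2, D3, D10 and D21 against D1. Genes of a few counts, such as Ctse, Ctsk, Atp6v0d2 and macrophage Ctsf, are limited by depth.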

Other observations

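The D21_infiltrating 1 library held 41 microglia outside the time course. In them Ctse was at 366 CPM (47 counts), compared with 8.87 to 13.3 CPM in the other late microglia that were fitted. The D3 library with conflicting labels had a lysosomal share of 3.48% in macrophages, 1.46% in dendritic-like cells and 2.56% in neutrophil-like cells.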
